A study of Solanum lycopersicum with 12 samples.

Results

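The transcripts of 7 tomato genes that phosphorylate hexoses or transport sucrose were followed: the hexokinases HXK1 (Solyc03g121070) and HXK2 (Solyc06g066440), the fructokinases FRK1 (Solyc03g006860) and FRK2 (Solyc06g073190), and the sucrose transporters SUT1 (Solyc11g017010), SUT2 (Solyc05g007190) and SUT4 (Solyc04g076960). They were chosen by identifier, and all 7 were among the 17887 genes of the table. HXK1 and FRK1 carry identifiers of chromosome 3 and HXK2 and FRK2 of chromosome 6. SUT4, SUT2 and SUT1 carry identifiers of chromosomes 4, 5 and 11.

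Hexokinases and fructokinases phosphorylate the glucose and fructose that sucrose cleavage releases, and so admit them to glycolysis, starch synthesis and renewed sucrose synthesis. Sucrose transporters of the SUT family move uncleaved sucrose across membranes, out of source leaves, into sink organs and in and out of the vacuole. In ripening tomato fruit, which stores mostly glucose and fructose, both groups act on either side of the invertases.

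RNA was sequenced from the fruit mesocarp, which is the flesh beneath the skin, of red ripe greenhouse tomatoes. Of the 4 genotypes, Q is the line Querubín FCA and G the line Gema FCA, both recombinant inbred lines that descend from crossing Solanum lycopersicum with the wild Solanum pimpinellifolium. QxG and GxQ are the hybrids of Q and G made in either direction. Each genotype had 3 libraries, each from a fruit described as a biological replicate. The labels do not say whether the fruits came from separate plants, so p-values measure the spread between these fruits. All genotypes shared the greenhouse and the stage; harvest and handling are not given by genotype and cannot be told apart from it.

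Levels are CPM, read counts relative to library size, after TMM scaling, and n is 3 libraries per genotype for every mean ± SD. Library totals ran from 15207931 to 25320267 counts. The 7 genes had 62 to 3444 counts per library. Some libraries stood apart: Q library 3 correlated with the other Q libraries at r = 0.953 and 0.957, against 0.987 between those, and in QxG library 1 no reads were counted for 1436 genes, compared with 31 to 338 genes in each other library. Ripe fruit genes were abundant in every library, with the 4 markers PSY1, PG2A, ACS2 and ACO1 summing to between 6387 and 22379 CPM. In such bulk samples, fewer cells of a type and less RNA per cell cannot be told apart.

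The hexokinase HXK1 and the sucrose transporter SUT4 were higher in Q than in G and in both hybrids. The fructokinase FRK1 was lower in both hybrids than in G, and the transcripts of the other 4 genes passed the test in none of the 7 comparisons. The mid-parent stands for the average of Q and G on the fitted log scale.

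Counts of calls have to be read against how often any gene was called in either direction. In Q against G, 2 of the 7 genes were called, HXK1 and SUT4, against 7.31% of all genes; both were higher, as were 4.51% of all genes. In QxG against Q both were called again (9.55% of all genes) and were lower (5.91%), and so they were in GxQ against Q (15.5% called and 7.41% lower). In QxG against G, FRK1 alone of the 7 was called (8.50%) and was lower (5.37%), as it was in GxQ against G (12.3% called and 5.34% lower). Both hybrids against the mid-parent gave HXK1, FRK1 and SUT4, 3 of 7 (11.4% called) and all lower (6.13%). In QxG against GxQ, edgeR called 0 of 7, with 1 at an unadjusted p under 0.05, and DESeq2 called 0, against 10.1% of all genes by edgeR. The libraries of both sides did not overlap for 4 of 7 genes in Q against G (38.4% of all genes), 5 in QxG against Q (30.0%), 3 in GxQ against Q (38.9%), 3 in QxG against G (32.9%), 3 in GxQ against G (38.5%), 1 in QxG against GxQ (26.5%) and 0 for all hybrid against all parental libraries (4.10%). With 7 genes, shares of this kind are not read as particular to them. The median log2 fold change of the 7 genes was 0.04 in Q against G, -0.44 in QxG against Q, 0.00 in GxQ against Q, -0.30 and -0.08 in QxG and GxQ against G, 0.12 in QxG against GxQ and -0.26 against the mid-parent. Over all genes these medians ran from -0.09 to 0.01. Comparisons that use the same libraries of a parent or hybrid are not independent of each other.

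**Figure D1:**
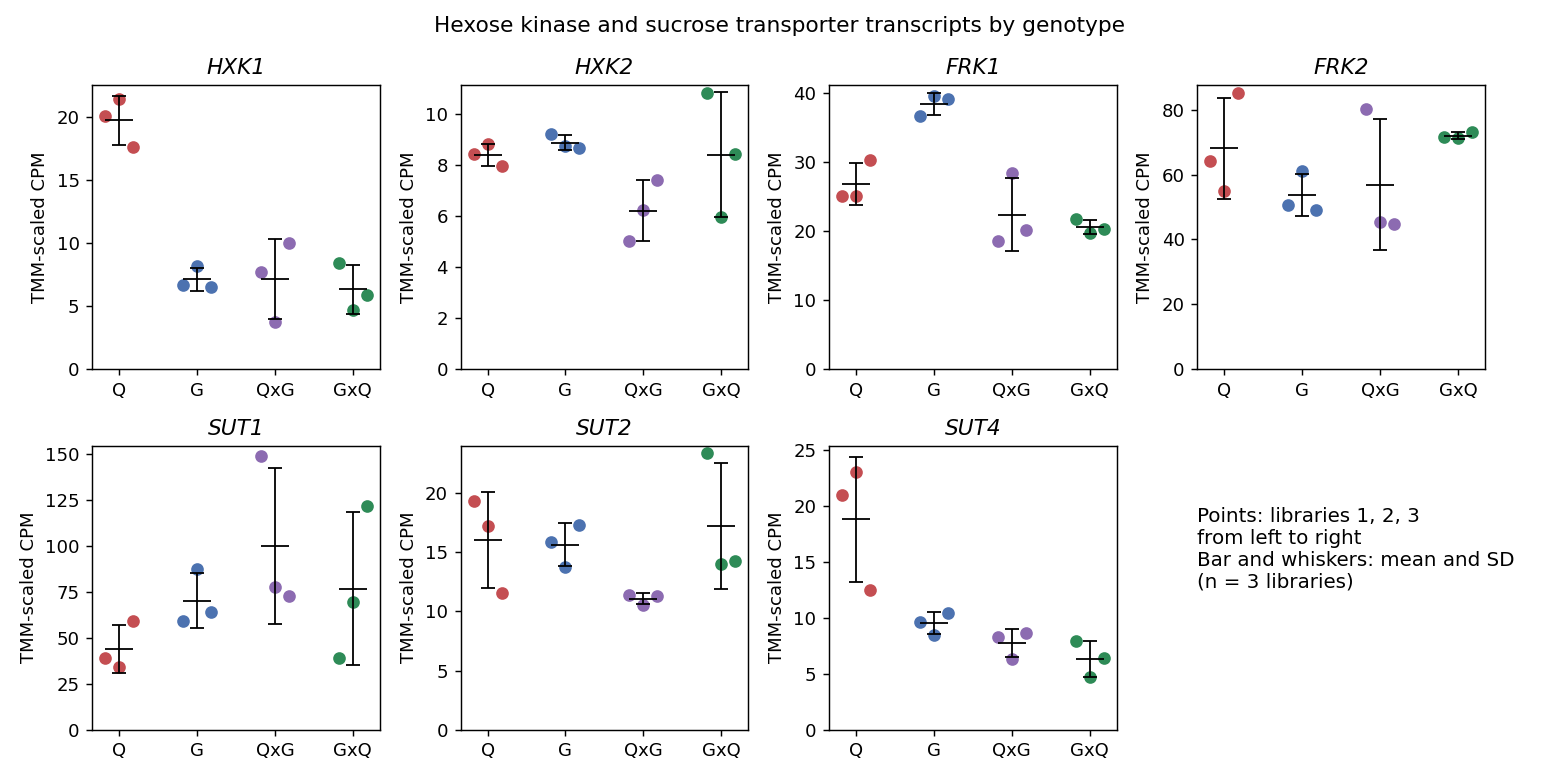
TMM-scaled CPM of the 7 genes in every library, by genotype, with a separate vertical axis from 0 for each gene; points are libraries and bars the mean and SD of 3. HXK1 and SUT4 stand high in the Q libraries, FRK1 in the G libraries, and SUT2 lies between 10.5 and 11.4 CPM in the QxG libraries.

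HXK1 encodes a hexokinase, the enzyme class that phosphorylates both glucose and fructose and that in Arabidopsis also serves as a glucose sensor. Its transcript stood at 20.0, 21.4 and 17.6 CPM in the Q libraries and at 6.62, 8.15 and 6.53 CPM in the G libraries. The QxG libraries held 7.67, 3.75 and 10.0 CPM and the GxQ libraries 8.44, 4.65 and 5.89 CPM. Every Q library lay above every library of the other genotypes, while G and the hybrids overlapped. The HXK1 mean of 19.7 ± 1.93 CPM in Q exceeded the 7.10 ± 0.910 CPM of G (SD, n = 3) by 2.78-fold, which is a log2 fold change of 1.48 with SE 0.324 (adjusted p = 0.0202 by edgeR's quasi-likelihood test over all genes). QxG and GxQ, at 7.15 ± 3.17 and 6.32 ± 1.93 CPM, were 2.75-fold and 3.11-fold lower than Q (adjusted p = 0.0203 and 0.00829 by edgeR). Against G, the hybrids had log2 fold changes of 0.01 (95% interval -0.69 to 0.72) for QxG and -0.16 (-0.87 to 0.54) for GxQ, neither of which passed. The hybrids stood at 53.3% and 47.2% of the mean of both parents in CPM, and the fit placed both hybrids together 0.81 below the mid-parent on the log2 scale (adjusted p = 0.0398 by edgeR).

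HXK2, the other hexokinase of the group, had 8.42, 8.83 and 7.97 CPM in the Q libraries and 9.22, 8.75 and 8.68 CPM in those of G. It had 5.00, 6.23 and 7.41 CPM in QxG and 10.8, 5.96 and 8.43 CPM in GxQ. The parental ranges overlapped, and all QxG libraries lay below all parental libraries without passing the test (log2 fold change -0.44 against Q and -0.52 against G, adjusted p = 0.259 and 0.197 by edgeR). The Q-minus-G log2 difference was -0.08 (95% interval -0.60 to 0.44). The ratio of HXK1 to HXK2 counts within a library, which no scaling can alter, was 2.38, 2.43 and 2.21 for the Q libraries, 0.718, 0.931 and 0.752 for G, 1.53, 0.602 and 1.35 for QxG and 0.778, 0.780 and 0.698 for GxQ. The Q libraries again stood apart from all others, and QxG libraries 1 and 3 lay between Q and the rest. The ratio rests on the lengths of both transcripts too, so it compares libraries and does not say which hexokinase is the more abundant.

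Fructokinases phosphorylate fructose alone. FRK1 stood at 25.1, 25.2 and 30.4 CPM in Q and at 36.7, 39.7 and 39.1 CPM in G. The QxG libraries held 18.6, 28.4 and 20.2 CPM and the GxQ libraries 21.7, 19.7 and 20.3 CPM. All G libraries lay above all others, and 5 of the 6 hybrid libraries lay below every parental library, the exception being QxG library 2. Against the G mean of 38.5 ± 1.60 CPM, FRK1 was 1.72-fold lower in QxG (22.4 ± 5.28 CPM, log2 fold change -0.78, adjusted p = 0.0178) and 1.87-fold lower in GxQ (20.6 ± 1.05 CPM, log2 fold change -0.90, adjusted p = 0.00769, both by edgeR). Both hybrids together were 0.58 below the mid-parent on the log2 scale (SE 0.117, adjusted p = 0.0105 by edgeR). Against Q, whose mean was 26.9 ± 3.04 CPM, neither hybrid passed (log2 fold change -0.26 and -0.39, adjusted p = 0.321 and 0.135 by edgeR). Between the parents FRK1 had a log2 fold change of -0.52 in Q (95% interval -0.88 to -0.16) and an adjusted p = 0.0760 by edgeR; it became 0.0480 without QxG library 1 and 0.0445 without QxG library 2, which enter this comparison only through the spread and scaling, and 0.0499 by DESeq2. It was 0.0414 with Q and G fitted alone and 0.0262 without QxG library 1 and Q library 3 together. The other alternatives left it uncalled, with an adjusted p of up to 0.240 by edgeR, reached without Q library 2.

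FRK2, known in tomato for its part in vascular development, had 64.3, 54.9 and 85.3 CPM in the Q libraries and 50.8, 61.1 and 49.1 CPM in those of G. The hybrids had 80.4, 45.5 and 44.8 CPM as QxG and 71.8, 71.2 and 73.3 CPM as GxQ. The GxQ libraries lay close together, whereas Q and QxG each held 1 library far above the others. No comparison passed with all libraries; QxG against GxQ gave a log2 fold change of -0.34 (adjusted p = 0.393 by edgeR). That value was -0.63 (adjusted p = 0.0560) without QxG library 1 and -0.61 (adjusted p = 0.0139) without QxG library 1 and Q library 3 together. Without both, GxQ was also called above G (log2 fold change 0.42, adjusted p = 0.0304, all by edgeR). No other alternative called either difference, and QxG against GxQ was -0.16 (adjusted p = 0.748 by edgeR) without QxG library 3. The ratio of FRK2 to FRK1 counts was 1.25 to 1.54 in G, 2.18 to 2.81 in Q, 3.30 to 3.62 in GxQ and 1.60 to 4.33 in QxG. The ranges of G, Q and GxQ did not overlap, and that of QxG spanned those of Q and GxQ. This ratio was not tested. In GxQ against Q neither gene was called (adjusted p = 0.135 for FRK1 and 0.842 for FRK2 by edgeR).

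**Figure D2:**
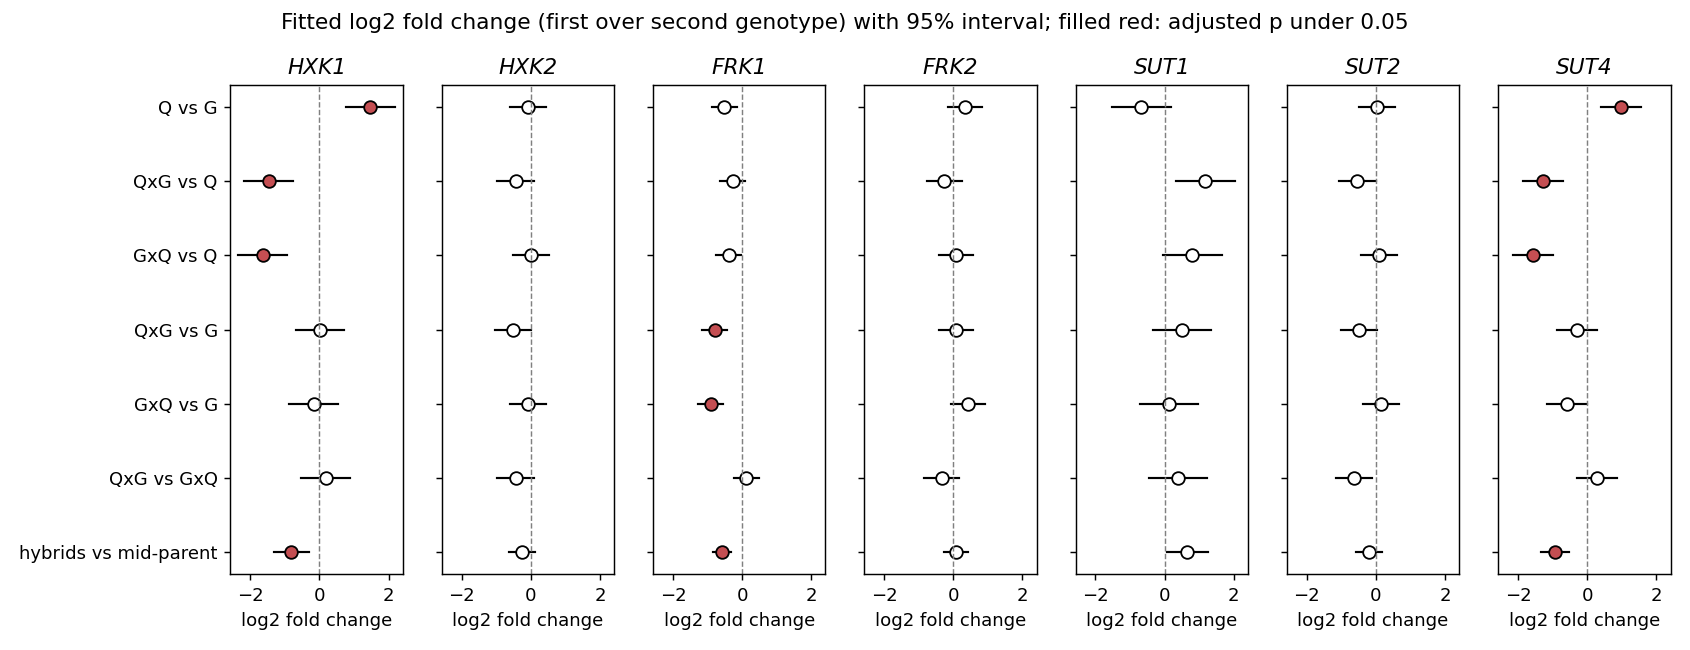
Fitted log2 fold change of each gene in the 7 comparisons (horizontal axis, first genotype over second) with its 95% interval; filled red points passed an adjusted p of 0.05 over all genes. The red points are those of HXK1 and SUT4 in the comparisons with Q and the mid-parent, and of FRK1 in those of the hybrids with G and the mid-parent.

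Among the transporters, SUT4 belongs to a group that in Arabidopsis and barley is found at the vacuolar membrane. Its transcript stood at 20.9, 23.0 and 12.5 CPM in the Q libraries and 9.66, 8.48 and 10.4 CPM in those of G. The hybrids had 8.32, 6.35 and 8.60 CPM as QxG and 7.92, 4.71 and 6.40 CPM as GxQ. All Q libraries lay above all others, with Q library 3 nearest to them. The Q mean of 18.8 ± 5.58 CPM was 1.98-fold that of G (9.51 ± 0.966 CPM, log2 fold change 0.98, SE 0.264, adjusted p = 0.0445 by edgeR). SUT4 was 2.42-fold lower in QxG (7.76 ± 1.23 CPM, adjusted p = 0.0168) and 2.96-fold lower in GxQ (6.34 ± 1.61 CPM, adjusted p = 0.00431) than in Q, and both hybrids together were 0.93 below the mid-parent on the log2 scale (adjusted p = 0.0108, all by edgeR). Of the 6 hybrid libraries, 5 lay below every parental library. Against G, however, the log2 fold changes of -0.30 in QxG and -0.59 in GxQ did not pass (adjusted p = 0.516 and 0.175 by edgeR).

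SUT1, the plasma membrane transporter of phloem loading and unloading, varied widely between fruits of both hybrids. It had 39.0, 34.3 and 58.9 CPM in the Q libraries and 59.1, 87.3 and 63.9 CPM in those of G. The hybrids had 148, 77.5 and 72.8 CPM as QxG and 39.0, 69.3 and 121 CPM as GxQ. The Q libraries all lay below those of G and QxG, but Q library 3 only narrowly below G library 1. GxQ overlapped every other genotype. Q against G did not pass (log2 fold change -0.67, adjusted p = 0.303 by edgeR). The largest log2 fold change was that of QxG over Q, 1.18 (95% interval 0.32 to 2.03, adjusted p = 0.0791 by edgeR). It was 0.79 (adjusted p = 0.200) without QxG library 1 and 1.46 (adjusted p = 0.0466) without Q library 3. It also passed without GxQ library 1 or 3 (adjusted p = 0.0446 and 0.0487) and by DESeq2 (adjusted p = 0.0219). SUT2, a transporter once proposed as a sucrose sensor, had 19.3, 17.3 and 11.5 CPM in the Q libraries and 15.8, 13.7 and 17.3 CPM in those of G. The hybrids had 11.4, 10.5 and 11.3 CPM as QxG and 23.4, 14.0 and 14.3 CPM as GxQ. All QxG libraries lay below all others, by a narrow margin to Q library 3. None of its comparisons passed; the lowest adjusted p was 0.126, for QxG against GxQ (log2 fold change -0.64, 95% interval -1.16 to -0.11).

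The balance of SUT2 and SUT4 counts was compared between genotypes by a ratio, which was not tested. The ratio of SUT2 to SUT4 counts was 0.923, 0.750 and 0.925 for the Q libraries, 1.64, 1.62 and 1.67 for G, 1.37, 1.66 and 1.32 for QxG and 2.95, 2.98 and 2.23 for GxQ. Q lay below and GxQ above all other libraries, while G and QxG overlapped. SUT4 itself was called higher in Q than in the other genotypes. In QxG against GxQ neither gene was called (adjusted p = 0.126 for SUT2 and 0.548 for SUT4 by edgeR). How often other gene pairs separate in this way was not computed. For HXK1 and SUT4, which were both highest in Q, the ratio ran from 0.590 to 1.41 over all 12 libraries. Within QxG alone it ran from 0.590 to 1.17. HXK1 itself varied 5.72-fold between the highest and the lowest library and SUT4 4.89-fold.

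**Figure D3:**
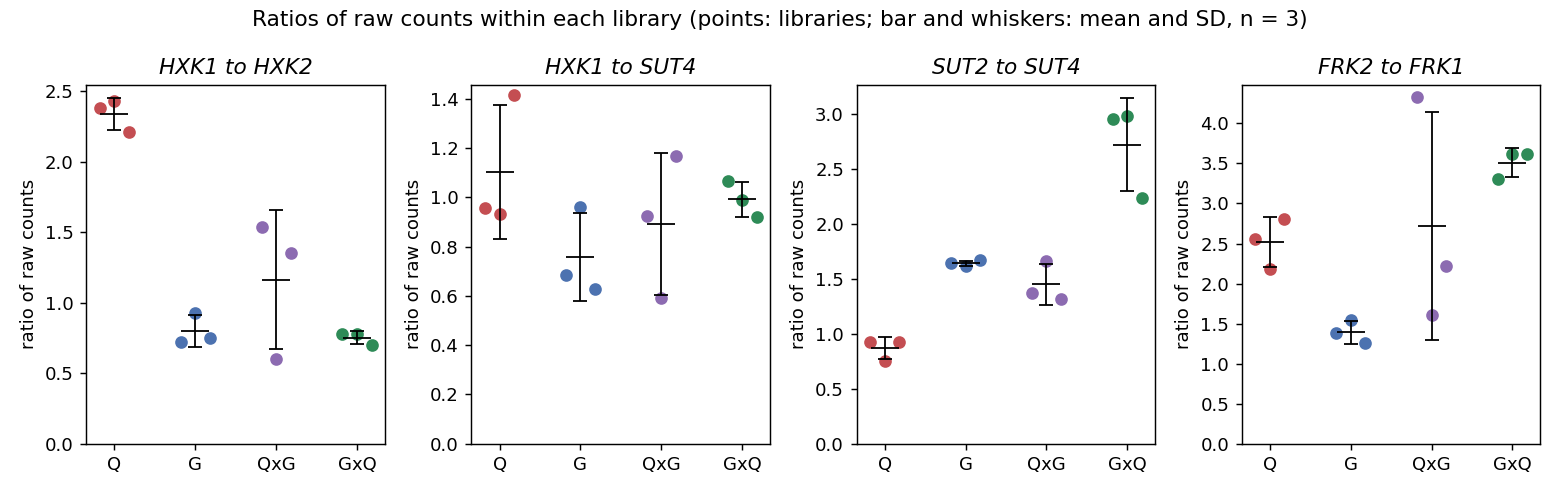
Ratios of raw counts of gene pairs within each library (vertical axes from 0, no unit), by genotype, with points for libraries and bars for the mean and SD of 3. HXK1 to HXK2 is at least 2.21 in the Q libraries and at most 1.53 elsewhere, and SUT2 to SUT4 is lowest in Q and highest in GxQ.

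The calls rest on few fruits. HXK1 and SUT4 in Q against G were lost without any of 5 parental libraries, namely Q library 1 or 2 or any G library (adjusted p = 0.0589 to 0.0869 for HXK1 and 0.101 to 0.159 for SUT4), while the log2 fold changes stayed between 1.41 and 1.58 and between 0.81 and 1.22 over all alternatives; SUT4 was also lost without GxQ library 3 (0.0563). In QxG against Q, both were lost without Q library 1 or 2 (adjusted p = 0.0769 to 0.0807), and SUT4 without QxG library 2 (0.0514); both were lost when Q and QxG were fitted alone (0.0769 for HXK1 and 0.0665 for SUT4). HXK1 against the mid-parent was lost without Q library 1 or 2, any G library or GxQ library 2 or 3 (adjusted p = 0.0724 to 0.0978). FRK1 in QxG against G was lost without any G library or QxG library 3 (adjusted p = 0.0512 to 0.0980), or when G and QxG were fitted alone (0.0518). HXK1, SUT4 and FRK1 kept their calls in GxQ against Q or G, and SUT4 and FRK1 theirs against the mid-parent, under every alternative run, with adjusted p of at most 0.0356. Without QxG library 1 and Q library 3 together, HXK1 and SUT4 were called in Q against G with log2 fold changes of 1.55 and 1.21.

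Other cell types could differ between the samples. Of the 4 epidermis markers 2 were in the table. CER6, a wax synthesis gene, was at 3.52 to 12.8 CPM in Q and at 0 to 1.01 CPM in the other genotypes, highest in Q as were HXK1 and SUT4 (log2 fold change 3.91 in Q over G, adjusted p = 0.0313 by edgeR), while CD2, a cuticle regulator, had means of 9.21 ± 0.720 for Q and 10.8 ± 0.499 CPM for G. The QxG 0 is library 1, which has an excess of zeros and where a 0 is not read as absence. So 1 of 2 was called in Q against G, and the pair summed to 13.4 to 22.1 CPM in Q, 11.2 to 11.4 in G, 5.02 to 9.73 in QxG and 4.38 to 16.0 in GxQ. Solyc03g005760, which encodes a light-harvesting chlorophyll a/b-binding protein and is the 1 measured marker of green tissue, stood at 8.95 to 19.3 CPM in Q, 3.82 to 6.22 in G, 7.46 to 14.1 in QxG and 2.46 to 5.32 in GxQ. It was called higher in Q than in G (adjusted p = 0.0333) and in QxG than in GxQ (adjusted p = 0.0245, both by edgeR). CER6 was also called lower in both hybrids than in Q, and Solyc03g005760 in GxQ than in Q. Of the ripe fruit genes, edgeR called 0 of 4 in Q against G, with 0 at an unadjusted p under 0.05 and 0 by DESeq2. In GxQ against Q, where HXK1 and SUT4 were lower, 2 of 4 were lower (15.5% of all genes called and 7.41% lower). PSY1, at 5562 against 6617 CPM, and ACO1, at 1284 against 1678 CPM, were not called. The polygalacturonase PG2A stood at 1177 ± 243 against 3677 ± 3358 CPM (adjusted p = 0.0482 by edgeR). The ethylene synthesis gene ACS2 stood at 283 ± 170 against 1128 ± 841 CPM (adjusted p = 0.0375 by edgeR). Q library 3 raised both Q means: the Q libraries held 1565, 1918 and 7549 CPM of PG2A and 616, 669 and 2098 CPM of ACS2. The 4 genes summed to 8284 to 22379 CPM in Q, 13011 to 14147 in G, 9966 to 12041 in QxG and 6387 to 10564 CPM in GxQ. Every hybrid library thus lay below every G library in this sum, as it did for FRK1. The single genes did not all follow the sum. PSY1 had means of 8968 CPM in G, 6704 in QxG and 5562 in GxQ, and PG2A of 3056, 1973 and 1177 CPM. The ACO1 mean was higher in both hybrids, at 1030 CPM in G, 1745 in QxG and 1284 in GxQ. ACS2 had means of 568 CPM in G, 580 in QxG and 283 in GxQ. In QxG against G and in GxQ against G, edgeR called 0 of the 4 ripe fruit genes, with 0 and 2 at an unadjusted p under 0.05, and DESeq2 called 0 and 1, the latter lower. The part of these cell type and ripening genes in the HXK1, SUT4 and FRK1 values was not tested.

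Other genes of the sugar pathway were counted by lists of hexose kinases, sucrose cleavage, sucrose synthesis, sugar transport and starch synthesis, of which 23 of 26 were in the table. The names of INVINH1, SUS6, SPSA1, SWEET1A and AGPS1 below rest on their identifiers alone, with no RefSeq gene of that symbol. In Q against G, 3 of the 23 were higher and 1 was lower, where 7.31% of all genes were called. Between the reciprocal hybrids 1 was lower in QxG (10.1% of all genes called), and against the mid-parent 1 was higher and 3 were lower (11.4%). With 23 genes these counts are not read as particular to the lists. Their median log2 fold changes were 0.76, 0.15 and -0.31. Of the other hexose kinases, HXK3, HXK4 and the plastid fructokinase FRK3, edgeR called 0 of 3 in each of these comparisons; at an unadjusted p under 0.05 there was 1 in Q against G, 1 between the hybrids and 0 against the mid-parent. DESeq2 called 1, 0 and 0. In GxQ against Q, edgeR called 1 of the 3, lower, where 15.5% of all genes were called and 7.41% were lower. HXK4 stood at 27.1 ± 12.9 CPM in Q and 11.2 ± 2.17 in G, and at 15.8 ± 4.77 in QxG and 10.3 ± 5.73 CPM in GxQ. Like HXK1, it was highest in Q, with a log2 fold change of 1.28 over G (adjusted p = 0.0818 by edgeR). Its values are given after they were seen.

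TIV1, the vacuolar invertase that yields the hexoses these kinases use, was lowest in Q, where HXK1 was highest: 1373 ± 480 CPM in Q against 13651 ± 1551 in G, 12711 ± 3423 in QxG and 9573 ± 3674 CPM in GxQ. It was 9.94-fold lower in Q than in G (adjusted p = 0.00122 by edgeR), and both hybrids together were 1.35 above the mid-parent on the log2 scale (adjusted p = 0.00852 by edgeR). The sucrose synthase SUS1 stood at 96.2 ± 60.9 CPM in Q against 23.4 ± 3.35 CPM in G (adjusted p = 0.0108), and AGPS1, of starch synthesis, 17.7 ± 3.07 and 2.46 ± 0.718 CPM (adjusted p = 0.0143, both by edgeR). The third gene that was higher in Q, AGPL1, also of starch synthesis, had 5.84 ± 3.08 against 0.426 ± 0.140 CPM (adjusted p = 0.00805 by edgeR); it lay under the mean of 5 CPM set for naming and is named after its values were seen. AGPS1, like HXK1 and SUT4, was low in both hybrids, at 4.09 ± 2.14 CPM in QxG and 3.39 ± 2.86 in GxQ. AGPL1 had 1.01 ± 0.265 CPM in QxG and 1.05 ± 0.867 in GxQ. The hybrid means of SUS1 lay above its G mean, at 43.1 ± 1.53 CPM in QxG and 65.8 ± 23.4 in GxQ.

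Against the mid-parent, the hybrids were lower in LIN7, a cell wall invertase (log2 fold change -0.87, adjusted p = 0.0237), in the sucrose synthase SUS6 (-0.61, adjusted p = 0.0303) and in the sugar transporter gene SWEET1A (-1.31, adjusted p = 0.00407, all by edgeR). LIN7 stood at 2.50 to 4.72 CPM in the QxG and 2.57 to 4.70 CPM in the GxQ libraries, below all parental libraries, which held 5.79 to 8.93 CPM. SWEET1A averaged 2.62 ± 1.13 CPM in QxG and 4.24 ± 0.591 in GxQ, against 7.91 ± 1.00 in Q and 8.63 ± 0.887 CPM in G. INVINH1, an inhibitor of invertases, was the 1 gene of the sugar lists called between the hybrids, at 55.0 ± 9.14 CPM in QxG and 198 ± 60.0 in GxQ (log2 fold change -1.85, adjusted p = 0.00104 by edgeR).

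**Figure D4:**
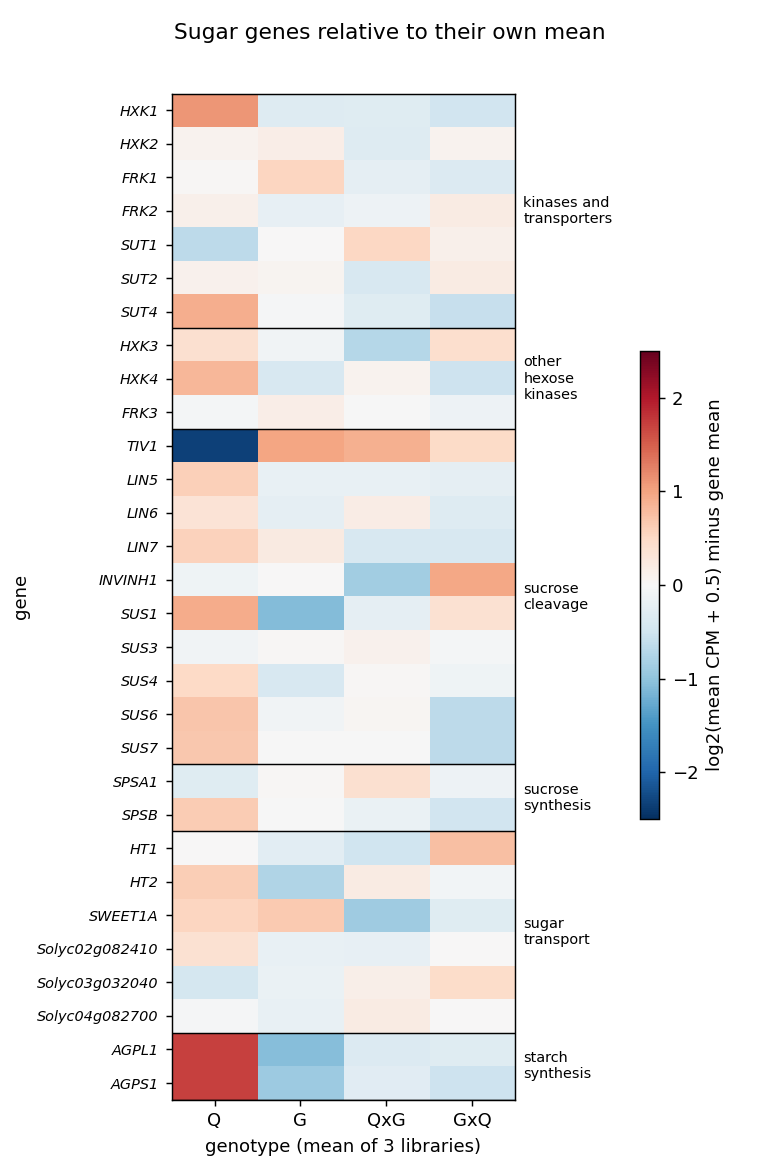
Mean level of each measured sugar gene in the 4 genotypes (columns), as log2(mean CPM + 0.5) minus the gene's own mean over genotypes (colour, red high and blue low, from -2.5 to 2.5). In the Q column HXK1, SUT4 and AGPS1 are red and TIV1 is deep blue, and in both hybrid columns LIN7 and FRK1 are pale blue.

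The profiles of the genes over the 12 libraries were compared by the root mean square difference of log2(CPM + 0.5), each centred on its own mean, a measure in which smaller is more alike. Among the 24 other measured genes with at least 1 CPM, SUT4 was nearest to HXK1 and HXK1 to SUT4, at 0.326, against a median of 0.728 over all candidates for HXK1. HXK2 and SUT2 were nearest to each other too, at 0.226, and both had their lowest mean in QxG. FRK1 was nearest to FRK3, at 0.289, FRK2 to the transporter gene Solyc04g082700, at 0.295, and SUT1 to the sucrose phosphate synthase SPSA1, at 0.405. A gene that hardly varies lies near any other such gene: FRK2, with a spread of 0.306 around its own mean, was hardly farther from a flat line than from its nearest profile. The spreads of HXK2 and SUT2 were 0.278 and 0.327, so HXK2 was only a little nearer to SUT2 than to a flat line. With 2 in place of 0.5 added to CPM, the nearest gene was the same for all 7.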

How the data were processed

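The authors deposited a table of whole-number read counts per gene for 12 libraries. Per the submitters' processing notes, FastQC, fastp 0.21, HISAT2 2.1.0, featureCounts of Subread, edgeR and R 4.0.3 took part in the processing. Build, annotation, strandedness and filters were not given in the sources used here. Overlapping, antisense or near-identical genes could thus share or lose reads. Every gene exceeded 0.5 CPM in at least 3 libraries, so genes with low counts were not analysed here.

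Counts were scaled by TMM (factors 0.884 to 1.24) and tested with edgeR 4.0.16 (R 4.3.3), by the quasi-likelihood test on genotype means over all 12 libraries, two-sided. P-values were adjusted by Benjamini-Hochberg over 17887 genes; a call is an adjusted p under 0.05 with no minimum fold. The common biological coefficient of variation was 0.309. The 7 genes had at least 62 counts in every library; low levels of CER6 and AGPL1 outside Q rest on few counts. The script was tested on simulated data. DESeq2 1.42.0, other scaling, filters, designs and leaving out libraries were alternatives.

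Same-numbered QxG and GxQ libraries deviated together (correlations of deviations from genotype means 0.164, 0.333 and 0.209). Libraries of unlike number were not compared, so these values do not show that the numbers are paired, and the main test used no pairing. With the numbers as a block in the hybrids, added after seeing the data, 0 of the 7 genes were called, against 2169 of all 17887. No other pair of genotypes had all correlations above 0.1.

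Gene names follow identifier lists; RefSeq (SLM_r2.1) names all 7 symbols on the chromosome of the identifier, although 0 identifiers matched directly. Of the 36 other listed symbols, RefSeq named 23 once, all on the identifier's chromosome; the others, such as INVINH1 and Solyc03g005760, were not checked by name. Members, lists and the naming rule (a listed gene with a mean of at least 5 CPM called in Q against G, QxG against GxQ or the hybrids against the mid-parent) were chosen with earlier results of these data known. No sequences are shown.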

Additional observations from a re-analysis of the deposited data

Results flagged for a closer look

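Of the 7 kinase and transporter genes, 0 were called between the reciprocal hybrids, which have the same parents. Outside them, 2 listed genes were called by the test of that difference. INVINH1, the invertase inhibitor, had a log2 fold change of -1.85 in QxG against GxQ (adjusted p = 0.00104 by edgeR's quasi-likelihood test). Solyc03g005760, which encodes a light-harvesting chlorophyll a/b-binding protein, had a log2 fold change of 1.58 in the same comparison (adjusted p = 0.0245 by edgeR).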

How the results depend on the processing

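The 11 calls among the 7 genes were recomputed as 206 values: 175 kept the call, 31 lost it with the same direction and 0 reversed. These exclude a fit without the filter on low counts, which is the same fit because the filter removed 0 genes. Of 725 values for the 38 uncalled results, 11 gained a call and 32 reversed, the latter all of results with a log2 fold change of at most 0.26 in size. HXK1 and SUT4 in GxQ against Q, FRK1 in GxQ against G, and FRK1 and SUT4 against the mid-parent kept their calls under every alternative run. The cause of the changes below was not tested, except that leaving out libraries gives fewer samples.

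DESeq2 called 2643 genes in Q against G, 3085 in QxG against Q, 2769 in QxG against G, 3379 in GxQ against G and 3224 against the mid-parent (edgeR 1308, 1709, 1521, 2205 and 2045), and 3 of the 7 genes in Q against G and in QxG against Q. Fitting the compared genotypes alone gave 2553, 1143 and 297 genes in Q against G, QxG against GxQ and QxG against Q. Of the 7 it called 3 in Q against G, 0 in QxG against Q and 0 in QxG against G, where it called 1337 of all genes. Without QxG library 1 and Q library 3 together, 2939, 3739, 2682, 3919 and 3649 genes were called in Q against G, QxG against Q, QxG against G, GxQ against G and against the mid-parent. Of the 7, 3 were then called in Q against G and 2 in GxQ against G. In QxG against GxQ, 1 (FRK2) was called, beside 2518 of all 17887 genes.

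With the replicate number as a block over all 12 libraries, 1 of the 7 and 1320 of all genes were called in Q against G. SUT4 then had an adjusted p = 0.0560 by edgeR, and the labels do not pair the numbers. No other call of the 7 changed under that block, and the block within the hybrids changed none.

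Leaving out 1 library at a time, edgeR called 335 to 2207 genes in Q against G, 1127 to 2205 in QxG against GxQ, 310 to 2606 in QxG against Q, 342 to 1993 in QxG against G, 1258 to 3828 in GxQ against Q, 777 to 3072 in GxQ against G and 1002 to 2663 against the mid-parent. Of the 7 it called 0 to 3, 0, 0 to 3, 0 to 1, 2, 1 and 2 to 3 in the same order.

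Uncalled values changed sign as follows. For HXK2 in GxQ against Q, the log2 fold change was -0.0274 with at least 1 CPM in 3 libraries, -0.0144 with the replicate block, -0.00024 with the compared genotypes alone and -0.0429 without both libraries. HXK1 in QxG against G was -0.0364 with the block. Without both libraries, FRK1 in QxG against Q was 0.0038, FRK2 in QxG against G -0.19 and SUT2 in GxQ against Q -0.0946. Leaving out 1 library gave these ranges of log2 fold change. FRK1 in QxG against GxQ ran from -0.0515 to 0.28. FRK2 ran from -0.0554 to 0.26 in GxQ against Q, -0.0727 to 0.19 against the mid-parent and -0.21 to 0.26 in QxG against G. HXK1 ran from -0.43 to 0.0164 in GxQ against G, -0.27 to 0.35 in QxG against G and -0.11 to 0.52 in QxG against GxQ. HXK2 ran from -0.30 to 0.12 in GxQ against G and -0.22 to 0.20 in GxQ against Q. SUT1 ran from -0.38 to 0.44 in GxQ against G. SUT2 ran from -0.15 to 0.27 in GxQ against G, -0.18 to 0.26 in GxQ against Q and -0.11 to 0.24 in Q against G.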
